A study of Ceratotherium simum with 9 samples.

Results

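The 9 entries described here are miRNA names grouped as possible fragments of other small or structural RNAs, or of a library adapter, although sequences were at hand for only 2 of them. They are bta-miR-11980, bta-miR-2478, bta-miR-11987, bta-miR-11975, bta-miR-11976, bta-miR-1260b and bta-miR-1246 from cattle, and hsa-miR-1260a and hsa-miR-3168 from human. They were taken by name from the 3886 mature miRNA names in the deposited table, by a list of names drawn up with earlier results of these data known. Reads were assigned to 733 of those names in at least 1 library, and 417 entries passed the filter for testing, among them all 9. The name of an entry gives the species whose catalogue sequence the reads matched, since all RNA came from southern white rhinoceros (SWR, Ceratotherium simum simum).

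Extracellular vesicles (EVs) were isolated from ovarian follicular fluid (FF) of 2 SWR females. Follicles were staged by diameter as growing (G, 11 to 17 mm), dominant (D, 18 to 29 mm) and pre-ovulatory (P, 30 to 34 mm), with 3 small-RNA libraries per group (n = 3). Both females had been given oral chlormadinone acetate, a progestin, and then the GnRH analog deslorelin before transrectal ovum pick-up, so that every group comes from hormonally stimulated ovaries, and follicles were flushed with a heparinized solution. EVs were pooled over the 2 animals, so the 3 libraries of a group may be repeats of 1 pool, and a p-value reflects no more than how far these samples differ among themselves, which may be technical. In EV RNA, fewer vesicles carrying an RNA and less of that RNA per vesicle cannot be told apart.

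MicroRNAs are cut by Dicer from hairpin precursors and are loaded into Argonaute, where the seed near the 5′ end pairs with target mRNAs. Vesicles and biofluids also hold pieces of abundant structural RNAs, including transfer RNA (tRNA), ribosomal RNA (rRNA) and the small nuclear RNA (snRNA) of the spliceosome. Some such pieces were entered into miRNA catalogues from sequencing reads, and a read that matches the entry is then counted as a miRNA. A mature tRNA ends in the bases CCA, which are added to its 3′ end after transcription, and this ending marks fragments from the 3′ end of tRNAs.

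Of the 9 entries, bta-miR-11980 and bta-miR-2478 had the highest levels in G1, a library of growing follicles. Their sequences are shown because they were the only ones at hand, and they carry features of rRNA-like and tRNA-like fragments. They are written 5′ to 3′ in DNA letters, with the seed (bases 2 to 8) in capitals, and come from a supplementary table that holds 44 sequences.
bta-miR-11980: aGGCAACGggcttggcggag
bta-miR-2478: gTATCCCActtctgacacca
Both are 20 bases long. The first has 70% G and C and closely resembles a stretch of 28S rRNA, the RNA of the large ribosomal subunit, although no rRNA sequence was compared with it. The second has 50% G and C and closely resembles the 3′ end of a leucine tRNA, and of the 44 sequences it was the only 1 ending in CCA. No other of the 44 had the seed of either entry, and the longest shared start was the first 6 bases that bta-miR-11980 had in common with eca-miR-31. The RefSeq annotation of a rhinoceros assembly (ASM5780239v1) lists 475 tRNA genes, of which 34 are for leucine, as well as 30 rRNA and 523 snRNA genes.

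The libraries held 18384 to 149281 recovered miRNA reads, and 1 read was worth 5.64 CPM (counts scaled to library size) in G3 to 38.6 CPM in P2. The CPM also carry the TMM adjustment of the authors, so that shares are given over the reads. Those are only the reads matched to miRNA names, which the paper reports as a very small part of each library. Shares therefore do not describe all the RNA that was sequenced. An entry without a read in a library may have had up to 3, which is 16.9 CPM in G3 and 115.9 CPM in P2. Intervals and such limits cover counting error only, since the reads carry no molecular identifiers. Red-cell miRNAs (5 of 6 entries with reads) took 4.49 to 15.4% of reads, epithelial miRNAs (11 of 15) 0.145 to 3.51% and leukocyte miRNAs (8 of 9) 0.0803 to 0.463%. Gonadal miR-202 (1 of 3 entries with reads) took 0 to 0.418% and had no read in D2. Of the series, 2 libraries stood apart by a dominant entry, G1 with bta-miR-11980 at 34.97% of its reads and D2 with eca-miR-148a at 71.8%.

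Together the 9 entries took 45.3% of the recovered miRNA reads of G1 (Wilson 95% interval 44.9 to 45.7%), 8.94% of G2 (8.55 to 9.34%) and 11.3% of G3 (11.1 to 11.4%). Their share was 5.76% in D1, 1.45% in D2 and 4.23% in D3. It was 3.71% in P1, 4.97% in P2 and 2.55% in P3. Every G library was thus above every D and P library, and the D and P libraries overlapped. The G, D and P groups had mean shares of 21.8 ± 20.4%, 3.81 ± 2.19% and 3.74 ± 1.21% (SD, n = 3), and without G1 the mean of G was 10.1%. No test was made of this sum.

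The makeup of the share also differed between libraries. In G1, bta-miR-11980 and bta-miR-2478 made up 97.8% of the reads of the 9 entries, whereas in G2 they made up 6.75% and in G3 1.08%. In those other G libraries hsa-miR-3168 held most of the share, with 7.34% of all reads in G2 and 10.9% in G3 but 0.0396% in G1. With hsa-miR-3168 left out, the share of the other 8 entries was 45.3% in G1, 1.60% in G2, 0.379% in G3, 0.452 to 2.66% in D and 1.54 to 3.31% in P. Without that entry G3 was the lowest library of the series and G2 lay among the D and P libraries.

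**Figure D1:**
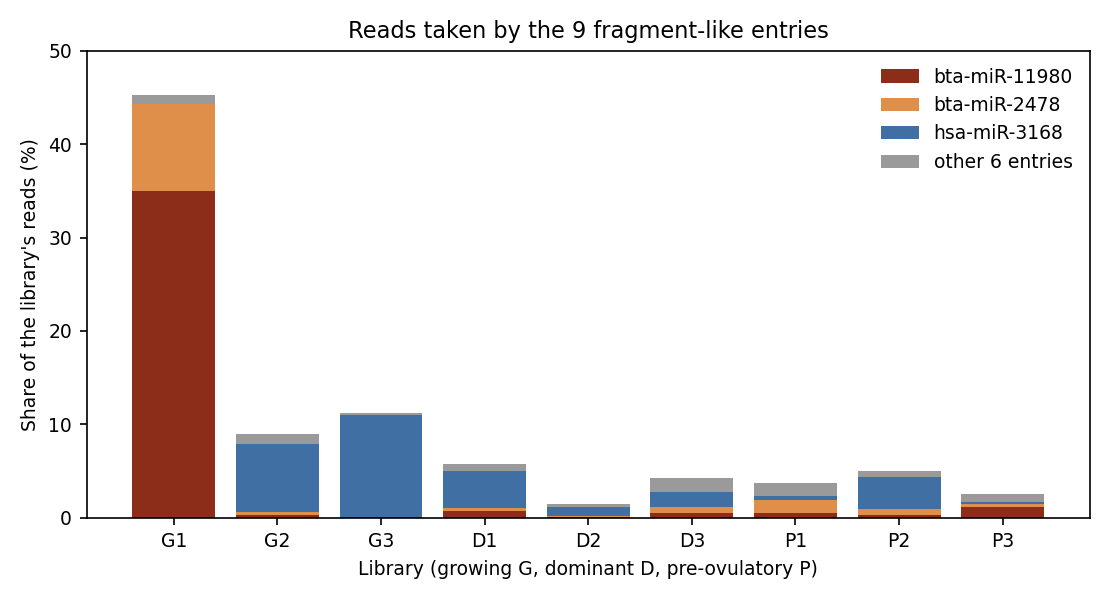
Stacked bars give the percent of each library's recovered miRNA reads (y axis) held by the 9 entries in the 9 libraries (x axis), split into bta-miR-11980, bta-miR-2478, hsa-miR-3168 and the other 6. The bar of G1 reaches 45.3% and is almost wholly bta-miR-11980 and bta-miR-2478, while hsa-miR-3168 fills most of the bars of G2 and G3.

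The rRNA-like entry bta-miR-11980 had the highest level of any entry in G1. Its level was 554503 CPM in G1, 2343 CPM in G2 and 672 CPM in G3. It was 6446, 4089 and 4619 CPM in D1, D2 and D3, and 4672, 2473 and 8206 CPM in P1, P2 and P3. G1 stood far above all other libraries while G2 and G3 lay below every D and P library in CPM, so the range of G enclosed both other groups. G1 was 67.6 times the next highest library in CPM and held 93.3% of all reads of the entry. By share of reads, which leaves out the TMM adjustment, G1 (34.97%) was 30.1 times P3 (1.16%), and G2 (0.343%) was above D2 (0.127%). By level it ranked 1 in G1, 41 in G2 and 109 in G3, and between 23 and 52 in the D and P libraries.

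The mean level of bta-miR-11980 was 185839 ± 319273 CPM in G, 5051 ± 1237 CPM in D and 5117 ± 2892 CPM in P (SD, n = 3). The mean of G was 36.8 times that of D with all 3 libraries and 0.298 times that of D without G1. On the log2(CPM + 10) scale, where each library has equal weight, the difference in G vs. D was 0.95 ± 1.71 (SE, adjusted p = 0.849, limma). Without G1 the difference was -1.97 ± 0.72 (adjusted p = 0.281, limma). The P vs. G difference likewise went from -1.07 (adjusted p = 0.904) to 1.85 (adjusted p = 0.204, limma), and the P vs. D difference was -0.12 (adjusted p = 1). The sign of the G comparisons of bta-miR-11980 was therefore set by 1 library, and no difference passed the threshold with or without it.

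The tRNA-like entry bta-miR-2478 was also highest in G1, by a smaller factor. Its level was 147962 CPM in G1, 1774 CPM in G2 and 344 CPM in G3. In D it was 3128, 1731 and 5883 CPM, and in P it was 12146, 4561 and 1888 CPM. G1 was 12.2 times the next highest library, P1, in CPM and 6.79 times P1 by share of reads, and held 79.4% of the reads of the entry, and G3 was the lowest of all libraries. In CPM the range of D lay almost wholly within that of P.

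The ratio of bta-miR-2478 to bta-miR-11980 reads was not constant. It was 0.267 in G1, 0.757 in G2 and 0.513 in G3, then 0.485, 0.423 and 1.27 in D1 to D3. In P it was 2.60 in P1, 1.84 in P2 and 0.230 in P3, so that bta-miR-2478 led in P1, P2 and D3 and bta-miR-11980 in the other 6 libraries. Means of bta-miR-2478 were 50027 ± 84818 CPM in G, 3581 ± 2113 CPM in D and 6198 ± 5322 CPM in P (SD, n = 3). The log2 difference was 0.51 ± 1.59 in G vs. D (adjusted p = 0.922, limma), 0.06 in P vs. G (adjusted p = 0.992) and 0.57 in P vs. D (adjusted p = 0.926). Without G1 the first was -2.00 (adjusted p = 0.423) and the second 2.57 (adjusted p = 0.182, limma).

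The entries hsa-miR-1260a and bta-miR-1260b are also known for their likeness to the 3′ ends of leucine tRNAs. Their catalogue sequences are nearly the same, so the counting could split reads between them and each value is uncertain. hsa-miR-1260a had 32 reads in G1 (874 CPM) and 1 read each in D1 (27.2 CPM), P1 (18.7 CPM) and P2 (38.6 CPM), with none in the other 5 libraries. Thus 91.4% of its reads came from G1, and over pooled reads G was 16.6 times D (exact 95% interval 2.78 to 676, counting error only). The corresponding P to G ratio was 0.128 (0.0148 to 0.501) and the P to D ratio 2.12 (0.111 to 125), both of which rest on 2 reads in P.

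bta-miR-1260b had the opposite distribution within G. It had 1 read in G1 (27.3 CPM), 26 in G2 (870 CPM) and 69 in G3 (389 CPM). It had 7, 1 and 3 reads in D1 to D3 (190, 21.6 and 68.9 CPM), and in P it had 4 reads, all in P2 (155 CPM). The G2 and G3 levels of bta-miR-1260b were above every D and P library, and G1 was below D1, D3 and P2. The P vs. G difference was -3.21 ± 1.54 on the log2 scale (unadjusted p = 0.0570, adjusted p = 0.550, limma), which was the smallest p of the 9 entries in that comparison. The human entry of the same name, hsa-miR-1260b, had 3 reads in all, 1 each in G2, G3 and D2.

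bta-miR-1246 shares its name with a human entry that is known as a fragment of U2 snRNA, which recognizes the branch point in splicing. It was the most even of the entries with reads in every library, with its highest level 8.04 times its lowest. Its level was 6038, 4653 and 1095 CPM in G1 to G3, 4080, 7637 and 7814 CPM in D1 to D3, and 8801, 1739 and 4204 CPM in P1 to P3. All 3 groups overlapped, and G1 was not the highest library. The means were 3928 ± 2550 CPM in G, 6510 ± 2107 CPM in D and 4915 ± 3584 CPM in P (SD, n = 3). The related human entry hsa-miR-1290 had no read in G1 or D1, and reached 1264 CPM in D3 and 603 CPM in G2.

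hsa-miR-3168 closely resembles a part of the 5′ adapter of Illumina small-RNA kits, and the libraries were made with a kit of that maker. The adapter sequence was not at hand, and whether adapter reads were counted under this name was not tested. Its level was 628 CPM in G1, 50076 CPM in G2 and 91010 CPM in G3. It was 34216, 32105 and 13789 CPM in D1 to D3, and 3588, 24348 and 1636 CPM in P1 to P3. G1 was the lowest of all libraries, whereas G2 and G3 were the highest. According to the paper, G3 had by far the smallest part of raw reads passing quality control, followed by G2 and then by D1 and D2. These were also the libraries with the highest levels of hsa-miR-3168. In rising order of that part, the remaining libraries were P1, G1, D3, P2 and P3, at 3588, 628, 13789, 24348 and 1636 CPM. The relation of read quality to this entry was not tested. The entry ranked 1 in G3, 3 in G2 and 6 in D1 and P2, but 107 in G1 and 69 in P3, and its highest level was 145 times its lowest.

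Means of hsa-miR-3168 were 47238 ± 45258 CPM in G, 26703 ± 11234 CPM in D and 9857 ± 12587 CPM in P (SD, n = 3). With all libraries the log2 difference was -0.79 in G vs. D (adjusted p = 0.856), -1.44 ± 1.47 in P vs. G (adjusted p = 0.803) and -2.24 in P vs. D (adjusted p = 0.408, limma). Without G1 the P vs. G difference was -3.69 ± 0.93 and passed the threshold (adjusted p = 0.0801, limma). Since G1 was the lowest library for this entry, leaving it out could only raise the mean of G. In the same fit G vs. D was 1.45 (adjusted p = 0.549) and P vs. D was unchanged at -2.24 (adjusted p = 0.219, limma). In G2 and G3 the level was above that of every D and P library. Epithelial miRNAs took the largest share in G3 (3.51%), where hsa-miR-3168 was highest, and 0.212% in G1, where it was lowest. Their share was lowest in D2 (0.145%), where hsa-miR-3168 took 0.994% of reads, at 32105 CPM. It was second highest in D3 (1.35%), where hsa-miR-3168 took 1.57% of reads, at 13789 CPM. For hsa-miR-3168 the order of D2 and D3 thus differed between share and CPM. The part of epithelial miRNAs in the differences was not tested.

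The bovine entry bta-miR-11987, for which no role is given here, had reads in every library. It was at 8114, 1272 and 485 CPM in G1 to G3, 2339, 930 and 4757 CPM in D1 to D3, and 3569, 2010 and 1938 CPM in P1 to P3. In CPM G1 was again highest, at 1.71 times the next library, but by share of reads G1 (0.512%) was below D3 (0.541%), and the groups overlapped. Its mean was 3290 ± 4196 CPM in G, 2675 ± 1935 CPM in D and 2506 ± 922 CPM in P (SD, n = 3).

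bta-miR-11975 had 40 reads in all and bta-miR-11976 had 21, each with reads in 5 of the 9 libraries. bta-miR-11975 was at 124 CPM in G3, 151 in D2, 184 in D3, 18.7 in P1 and 50.3 in P3, and had no read in the other 4. bta-miR-11976 was at 62.1 CPM in G3, 109, 21.6 and 46.0 in D1 to D3, and 75.5 in P3. Neither had a read in G1 or G2, where 3 reads correspond to 82.0 and 100.4 CPM, so levels up to those could have been missed. Over pooled reads the P to D ratio was 0.212 (exact 95% interval 0.0394 to 0.751) for bta-miR-11975 and 0.455 (0.0759 to 1.99) for bta-miR-11976, each on 3 reads in P. These intervals cover counting error only and not the spread between libraries. In the fit over libraries the P vs. D difference was -1.39 ± 1.44 for bta-miR-11975 (SE, adjusted p = 0.649, limma). For bta-miR-11976 it was -1.54 ± 1.18 (adjusted p = 0.501, limma).

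**Figure D2:**
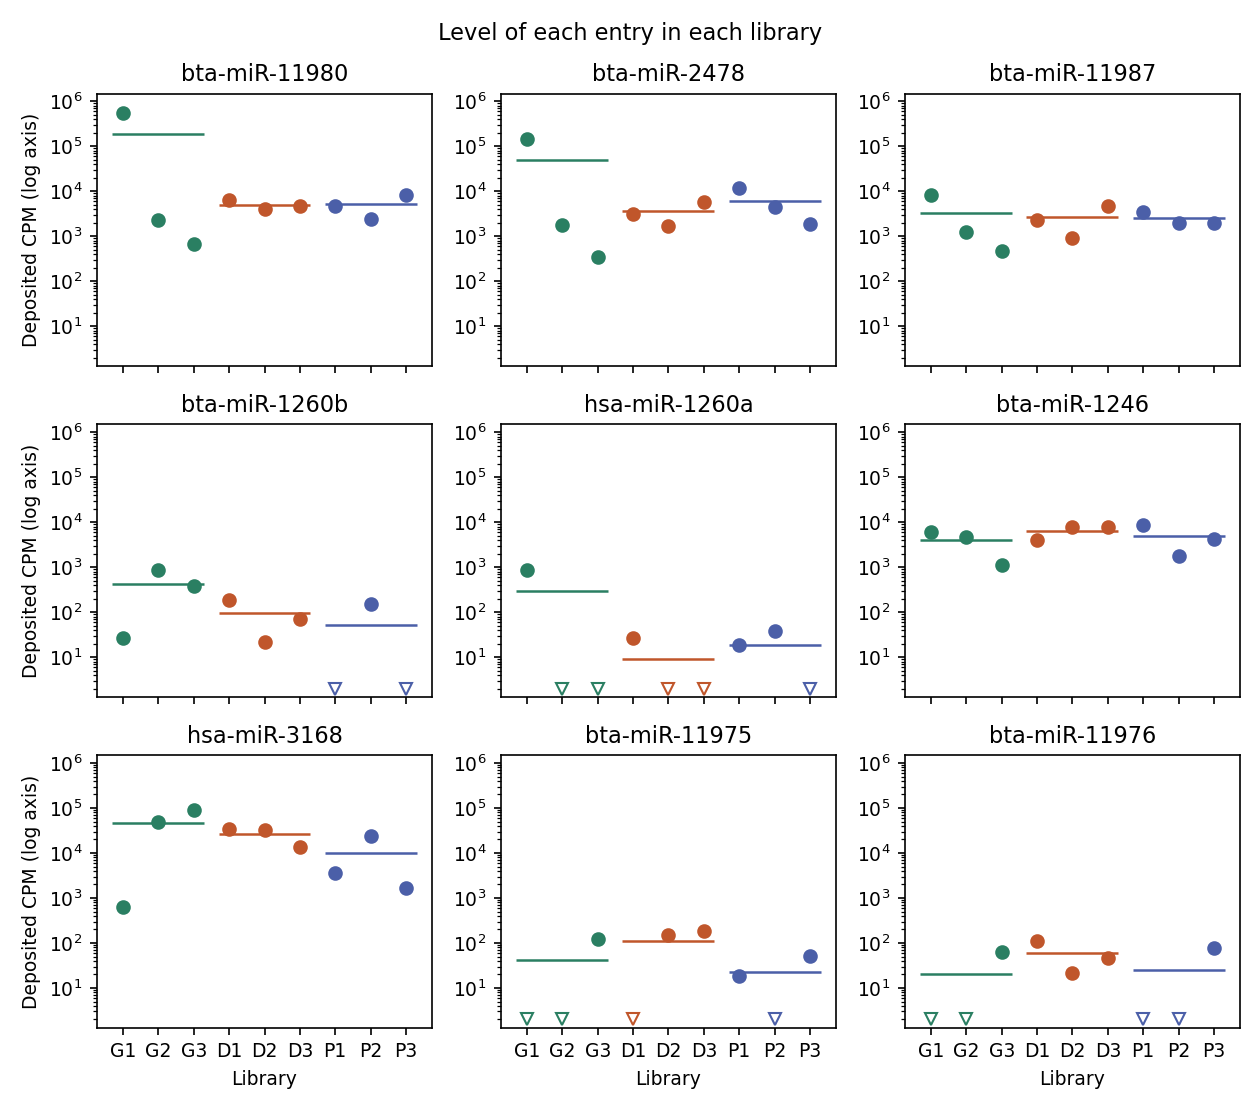
Each panel shows 1 entry, with the deposited CPM on a log axis (y) in the 9 libraries (x) as filled points, group means as horizontal lines, and libraries without a read as open triangles at the foot of the panel. G1 lies far above the other libraries for bta-miR-11980 (554503 CPM), bta-miR-2478 (147962 CPM) and hsa-miR-1260a (874 CPM), and is the lowest for hsa-miR-3168 (628 CPM).

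The comparisons between stages asked whether the entries differed in FF-EVs as follicles grew. In G vs. D, 0 of the 9 entries were called (limma, adjusted p under 0.1 and at least 2-fold), where 4 of all 417 entries were (0.959%). The count was also 0 of 9 at an unadjusted p under 0.05, against 9.35% of all entries. With edgeR 0 of 9 were called, against 0.959% of all entries, and with DESeq2 0 of 9, against 4.03% of the 347 entries with an adjusted p, a value that 3 of the 9 did not receive. The 9 adjusted p-values were 0.645 to 0.922 (limma), with 4 differences above and 5 below 0, and the median log2 difference was -0.34, beside 0.43 over all entries tested.

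In P vs. G, 0 of 9 were called by limma, against 0.48% of all entries, and 0 of 9 at an unadjusted p under 0.05, against 7.43%. edgeR called 0 of 9 against 0.719%, and DESeq2 0 of 9 against 6.14%, with 5 of the 9 lacking an adjusted p. The median log2 difference of the entries was 0.06, beside -0.28 over all entries. In P vs. D, 0 of 9 were called by limma, against 2.64%, and 0 of 9 at an unadjusted p under 0.05, against 14.6%. There edgeR called 0 of 9 against 1.68% and DESeq2 0 of 9 against 17.2%, with 4 of the 9 lacking an adjusted p. The median of the entries was -0.64, beside 0.16 over all entries. The comparisons share groups, so they are not independent of each other.

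The size of the difference for the most abundant entries depended on the model. edgeR works from mean counts, and for bta-miR-11980 gave a log2 difference of 5.14 in G vs. D (unadjusted p = 0.00394, adjusted p = 0.205, edgeR), as against 0.95 in limma. For bta-miR-2478 it gave 3.75 (adjusted p = 0.279, edgeR), as against 0.51. DESeq2 gave 5.21 for bta-miR-11980 and no p-value for it, for bta-miR-2478 or for hsa-miR-3168.

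Leaving out G1 changed the sign of 4 of the 9 differences in G vs. D and of 4 in P vs. G. Sign changes over all tested entries were not counted, so these counts do not set the 9 apart. The median of the 9 without G1 was -1.15 in G vs. D, beside 0.56 over all entries, and 0.82 in P vs. G, beside -0.40. Without G1, limma called 1 of the 9 entries in P vs. G, hsa-miR-3168, which was lowest in G1, against 4.56% of all entries. edgeR without G1 also called hsa-miR-3168 in P vs. G (log2 difference -2.81, adjusted p = 0.00923), against 2.88% of all entries. It called the entry in P vs. D as well (-1.66, adjusted p = 0.0938, edgeR), against 8.63%. DESeq2 without G1 gave -2.56 in P vs. G (adjusted p = 0.116) and did not call it.

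**Figure D3:**
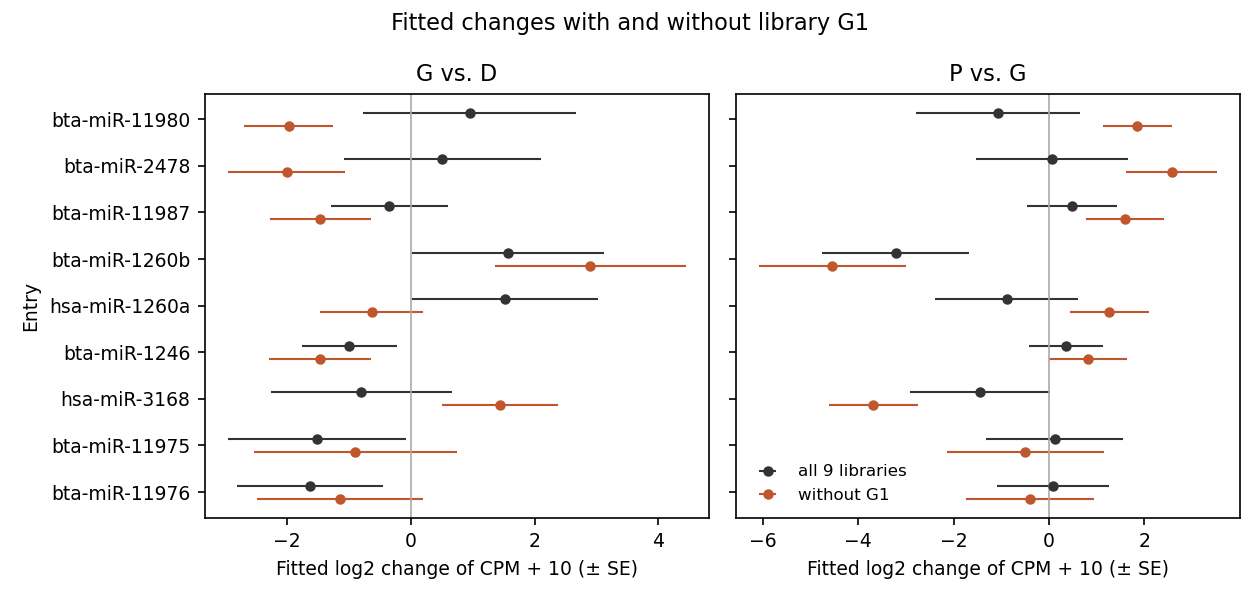
Points give the fitted difference on the log2(CPM + 10) scale (x axis) with its SE as a bar for each of the 9 entries (y axis), in G vs. D (positive is higher in G) and P vs. G (positive is higher in P), from all 9 libraries and without G1. The points of bta-miR-11980 move from 0.95 to -1.97 in G vs. D, and those of hsa-miR-3168 from -1.44 to -3.69 in P vs. G.

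Some of the 9 entries lay at either end of the order of entries in G1. Over the 417 tested entries, the level in G1 minus the median of the other 8 libraries ranked bta-miR-11980 at 2 (6.99 on the log2 scale), hsa-miR-1260a at 3 (6.47) and bta-miR-2478 at 5 (5.92). bta-miR-11987 ranked 39 (2.03), and bta-miR-1246 lay nearer the middle (0.45). Near the other end was hsa-miR-3168 at 412 (-5.45). Also low were bta-miR-1260b at 350 (-1.61), bta-miR-11975 at 374 (-2.06) and bta-miR-11976 at 376 (-2.07). bta-miR-1260b had 1 read in G1, and bta-miR-11975 and bta-miR-11976 had none. The medians of bta-miR-11975 and bta-miR-11976 in the other 8 libraries were 34.5 and 33.8 CPM. Both are below the 82.0 CPM of 3 reads in G1, so a G1 level above the median could have been missed. The ranks of these rare entries are therefore uncertain. Rank 1 belonged to hsa-miR-3135b (7.94), which had 112 of its 119 reads in G1.

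**Figure D4:**
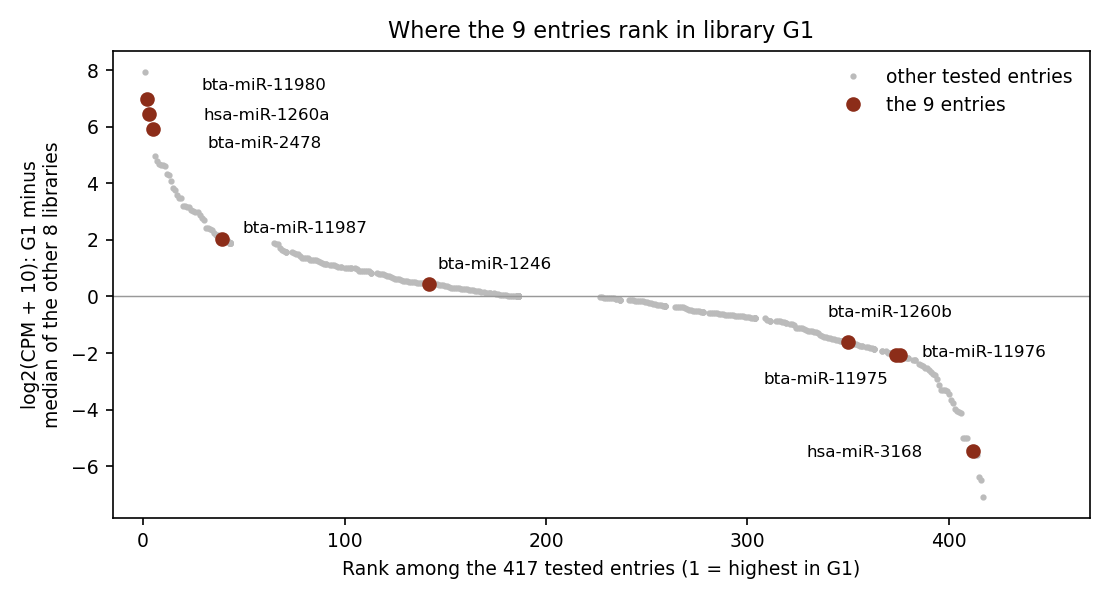
Each point is 1 of the 417 tested entries, with its level in G1 minus the median of the other 8 libraries on the log2(CPM + 10) scale (y axis) against its rank in that difference (x axis, tied entries share a rank), and the 9 entries are marked. bta-miR-11980 (6.99), hsa-miR-1260a (6.47) and bta-miR-2478 (5.92) sit at the top left and hsa-miR-3168 (-5.45) at the bottom right.

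G1 did not have a high share of other entries that resemble rRNA. Of 10 GC-rich human entries listed as rRNA-like, 8 were in the table and all 8 were tested. They took 3.53% of reads in G1, 2.81% in G2 and 2.53% in G3, and 20.0%, 2.32% and 10.03% in D1 to D3. Their share was 7.28% in P1, 7.23% in P2 and 11.5% in P3, so that G1 lay among the lower libraries. hsa-miR-10400-5p led the list, with 49421 CPM in G1 and up to 148096 CPM in D1, followed by hsa-miR-4497 and hsa-miR-4492. Of the 93 other bovine entries numbered close to bta-miR-11980 in the catalogue, 4 had reads, with 9 for bta-miR-12057 as the most. Of 15 other entries listed for their overlap with tRNA, rRNA or small nucleolar RNA genes, 8 were in the table and 3 of those had a read, 1 each. Shares of marker miRNAs in G1 were 10.05% for red cells and 0.0879% for leukocytes, both within the range of the other libraries. All these shares are over all recovered reads, so the 45.3% held by the 9 entries in G1 lowers every other share there. Shares over the remaining reads were not computed.

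Likeness of pattern was measured by Pearson's r of log2(CPM + 10) over the 9 libraries, as a description, since all entries share the same libraries and depths. Outside the 9, bta-miR-11980 was most like hsa-miR-3135b (r = 0.82, Spearman's rho = 0.23), but r was -0.07 over the 7 libraries left without G1 and G3. Next came eca-miR-92b (r = 0.78, and 0.35 without G1 and G3) and eca-miR-1271a (r = 0.76, and 0.45), the latter with 8 reads in all. For hsa-miR-3168 these were eca-miR-15b (r = 0.91), eca-miR-23a (r = 0.90, rho = 0.92) and hsa-miR-429 of the epithelial miR-200 family (r = 0.89), with r of 0.68 to 0.84 without G1 and P3. For bta-miR-2478 they were eca-miR-1271a (r = 0.76), bta-miR-99a-5p (r = 0.74) and eca-miR-128 (r = 0.73), with r of 0.46, 0.50 and 0.42 without G1 and G3.

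Likeness among the 9 entries was measured only for pairs that include bta-miR-11980, bta-miR-2478 or hsa-miR-3168. Of these pairs, bta-miR-2478 and bta-miR-11987 were the most alike (r = 0.92, rho = 0.97), and r was 0.82 without G1 and G3. bta-miR-2478 and bta-miR-11980 had r = 0.89, which was -0.0015 without those libraries. hsa-miR-3168 ran opposite to bta-miR-11980 (r = -0.82, rho = -0.82), with r = -0.64 over the 7 libraries left.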

How the data were processed

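Small-RNA libraries of FF-EVs from 2 SWR females, 3 per follicle stage, were analysed. According to the methods, EVs were isolated by ultracentrifugation and size exclusion, RNA was sequenced single-end, and the authors counted reads matching equine, bovine or human miRNAs (miRBase release 22, equine first, at most 2 mismatches) with CLC Genomics Workbench 21. The values they deposited are a signal, CPM after TMM adjustment by the authors, so that library totals differ. bcl2fastq and DESeq2 are also named in the submitters' processing notes. Whole reads were recovered by dividing each library's values by its smallest, and 100% came out whole within 0.01 of a read. Because reads were assigned to names, a fragment of another RNA that matches an entry is counted under it.

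Entries over 10 CPM in at least 2 of 3 replicates of at least 1 group (417) were tested by limma-trend (limma 3.58.1 under R 4.3.3) on log2(CPM + 10), with 9 libraries in one fit and Benjamini-Hochberg adjustment over all entries. In every library but G3, 1 read was worth more than 10 CPM, so 1 read in each of 2 replicates could pass this filter. An entry was called at an adjusted p under 0.1 if it also changed at least 2-fold. Fold changes on this scale understate those of low entries. Differences are positive where the group named first is higher. edgeR 4.0.16 (quasi-likelihood) and DESeq2 1.42.0 on recovered reads were alternatives, with other pseudocounts, filters, scalings, thresholds and groups in the fit, limma without trend, a replicate block, and each library left out. Those of edgeR and DESeq2 without G1 were chosen after seeing the data. Shares have Wilson 95% intervals, and ratios on 1 to 3 reads have exact intervals. Other steps ran in Python 3.11.15 (scipy 1.17.1, pandas 2.3.3, numpy 2.4.6, matplotlib 3.10.9). The tests were tested on simulated data in which only P was changed and no library stood apart. Their behaviour with a library like G1 was not tested.

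The members and lists were chosen with earlier results of these data known. All 9 entries are named, together with, for the 3 with the highest mean CPM, the 3 others most like each, and up to 3 entries per comparison list. hsa-miR-1260b and bta-miR-12057 fall under that rule. Sequences were read from the study's supplementary table for 2 of the 9 entries, and those of the other 7 were not at hand. tRNA, rRNA and snRNA genes were counted in the RefSeq table of assembly ASM5780239v1.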

Additional observations from a re-analysis of the deposited data

How the results depend on the processing

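The number of entries called moved with the processing. In G vs. D (4 with all libraries) it was 1 with only the compared groups in the fit and 1 with either total-sum scaling (with or without the reads of the 9 entries), 14 with DESeq2, and 12 and 17 with edgeR and DESeq2 without G1. In P vs. G (2) it was 0 without a filter, with only the compared groups, with either total-sum scaling and at an adjusted p under 0.05, 1 without trend, 14 with DESeq2, and 12 and 28 with edgeR and DESeq2 without G1. In P vs. D (11) it was 7 with a pseudocount of 40, 20 with the stricter filter, 21 with only the compared groups, 7 with edgeR, 46 with DESeq2, 36 and 46 with edgeR and DESeq2 without G1, and 6 at an adjusted p under 0.05. Leaving out 1 library gave 1 to 8, 0 to 19 and 0 to 16. Of the 9 entries, edgeR without G1 called 1 in either comparison with P, and leaving out 1 library gave 0 to 1 for P vs. G.

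The log2 difference of bta-miR-11980 was -1.84 and -1.76 in G vs. D and 1.86 and 1.84 in P vs. G with edgeR and DESeq2 without G1, and ranged from -1.97 to 2.86 and from -2.98 to 1.85 with 1 library left out. In P vs. D it was 0.71 with either total-sum scaling, 0.02 with edgeR, 0.06 with DESeq2 and 0.02 and 0.08 with these without G1 (-0.54 to 0.32 with 1 library left out). For bta-miR-2478 it was -1.84 and -1.74 in G vs. D without G1 (edgeR, DESeq2), -3.02 with edgeR and -2.99 with DESeq2 in P vs. G, and with 1 library left out -2.00 to 2.35, -1.78 to 2.57 and -0.11 to 1.23. For hsa-miR-3168 in G vs. D it was 0.03 with total-sum scaling without the 9 entries' reads, 0.58 with edgeR, 0.60 with DESeq2, 1.16 and 1.10 with these without G1, and -2.13 to 1.45 with 1 library left out. Its differences stayed below 0 in P vs. G (-3.69 to -0.11) and P vs. D (-3.35 to -1.40), as did that of bta-miR-1260b in P vs. G (-4.56 to -2.26), in these leave-one-out fits. The causes of these changes were not tested, beyond the fewer libraries used. Mean shares ranged from 10.1 to 28.3% in G, 2.84 to 4.99% in D and 3.13 to 4.34% in P. Total-sum scaling raised the median log2 difference of all entries by 0.54 in P vs. D, by 0.34 in G vs. D and by 0.26 in P vs. G. hsa-miR-1260a and bta-miR-11975 did not pass the stricter filter and have no value there.

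With the replicate number as a block, 4 entries were called in G vs. D, 3 for P vs. G, and 11 for P vs. D, with 0 of the 9 entries among them. Same-numbered libraries had correlations of -0.0552 to 0.141 in their deviations, over 0.1 in 2 of 9 pairs. Pairs with different numbers had -0.190 to 0.0501, over 0.1 in 0 of 18. Whether same-numbered libraries share more than a number was not tested. Depth limited the 4 rarest entries, at 21 to 111 reads in all.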
